A study of Mus musculus with 3 samples.

Results

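Colony-stimulating factors are secreted proteins that drive the growth and survival of myeloid cells. The genes described here are the ligands Csf1, Il34, Csf2 and Csf3 and the receptor genes Csf1r and Csf2ra, chosen by symbol, and they were 6 of the 28692 genes in the count matrix. Their transcripts were followed in 5 classes of tumour cells, each defined by at least 1 UMI (unique molecular identifier, a count of captured transcripts) of both genes of a marker pair. The pairs were Epcam and Cdh1 for epithelial cells, Dcn and Col3a1 for fibroblasts, Rgs5 and Higd1b for mural cells, Upk3b and Lrrn4 for mesothelial cells, and Pecam1 and Cdh5 for endothelial cells. Epithelial cells were also divided by Areg, an EGF receptor ligand, into cells with 2 or more UMIs and cells with 0.

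CSF-1, the product of Csf1, and interleukin-34, the product of Il34, bind the same receptor tyrosine kinase, CSF1R, which macrophages and monocytes carry and need for survival. GM-CSF, the product of Csf2, signals through an alpha chain encoded by Csf2ra and a beta chain encoded by Csf2rb, and in pancreatic tumours it is known as a product of the tumour epithelium that acts on myeloid cells. G-CSF, the product of Csf3, acts through CSF3R and is best known for driving neutrophil production.

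The samples were 3 pancreatic tumours of KPf/fC mice, untreated as far as the labels say, and they form 1 group with no second genotype, agent or time. The labels do not spell out the alleles, the Cre driver or the animals' age, and they do not say whether each tumour came from its own mouse. Cells negative at the surface for CD45 (leukocytes), CD31 (endothelium) and PDGFRa (many fibroblasts) had been sorted and profiled by droplet 3' sequencing. The classes are therefore those left after the sort: macrophages and neutrophils, the main receivers of these factors, were mostly removed, and the fibroblasts and endothelial cells are the ones that escaped it.

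After filtering, 19001 cells remained, 5734 to 7288 per tumour, with a median of 6025 to 9052 UMIs per barcode before filtering. The classes held 6366 epithelial, 5903 fibroblast, 708 mural, 358 mesothelial and 285 endothelial cells, and endothelial cells of tumour 2 (18 cells) were too few to be summed. Each second marker list was highest in the class of its own type, but other classes held part of it. The 6 keratins and claudins summed to 7758 to 10045 CPM (UMIs scaled to counts per 1e6 UMIs of the class) in epithelial cells. They summed to 1951 to 3277 CPM in mesothelial cells and 456 to 1403 in fibroblasts. The 5 mesothelial markers summed to 1864 to 3419 CPM in mesothelial cells, 299 to 740 in epithelial cells and 58.0 to 251 in fibroblasts. The 6 fibroblast markers summed to 3959 to 11349 CPM in fibroblasts, lowest in tumour 2, and 2911 to 3584 in mural cells. Of the 373 cells passing the mesothelial pair, 362 also passed the fibroblast pair, and such cells were counted as mesothelial unless they also passed another pair. Neutrophil markers reached at most 40.2 CPM and lymphoid markers at most 24.4 CPM, both in mural cells, and the macrophage list reached 156 CPM in mesothelial cells, nearly all of it Cd14 and Cd68. The tumours shared 50 to 65 barcode sequences in pairs.

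By mean, Csf1 was highest in mesothelial cells and fibroblasts. In fibroblasts it stood at 44.0, 26.6 and 16.0 CPM in tumours 1, 2 and 3 (mean 28.9 ± 14.1, SD, n = 3), and in mesothelial cells at 28.6, 37.3 and 27.7 CPM (31.2 ± 5.29). In epithelial cells it stood at 2.19, 5.69 and 3.90 CPM (3.93 ± 1.75). The ranges of fibroblasts and mesothelial cells overlapped each other, and neither overlapped the epithelial range.

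Mural cells held 8.34, 11.1 and 0.838 CPM of Csf1, the last resting on 1 UMI, and endothelial cells held 16.7 and 4.21 CPM in tumours 1 and 3. Both ranges overlapped the epithelial one, and the endothelial range also reached that of fibroblasts. A Csf1 UMI was found in 26.3%, 22.0% and 8.01% of fibroblasts against 2.35%, 4.79% and 2.69% of epithelial cells. When cells were thinned to 3000 UMIs, which left out shallower cells of tumour 3 (333 fibroblasts, 91 epithelial, 114 mural, 29 endothelial and 1 mesothelial), fibroblasts and epithelial cells stood at 13.2%, 7.19% and 4.64% against 0.628%, 1.69% and 1.08%.

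Across all genes tested between epithelial cells and fibroblasts, 18.0% were called higher and 24.5% lower in epithelial cells, and of the 6 genes 1 was called higher and 2 lower. Csf1 was lower in epithelial cells in 3 of 3 tumours, with a log2 fold change of -2.87 ± 0.40 (SE; edgeR quasi-likelihood test, adjusted p = 4.46e-05). Against mesothelial cells the log2 fold change was -3.04 ± 0.46 (edgeR adjusted p = 0.000131). Fibroblasts exceeded mural cells by 2.20 ± 0.50 on the log2 scale (edgeR adjusted p = 0.00739), in 3 of 3 tumours, and this call was lost without tumour 1 (adjusted p = 0.0634). Fibroblasts and mesothelial cells differed by -0.17 ± 0.42, which did not pass the test (edgeR adjusted p = 0.840). Epithelial and mural cells differed by -0.66 ± 0.56, which did not pass either (edgeR adjusted p = 0.373).

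**Figure D1:**
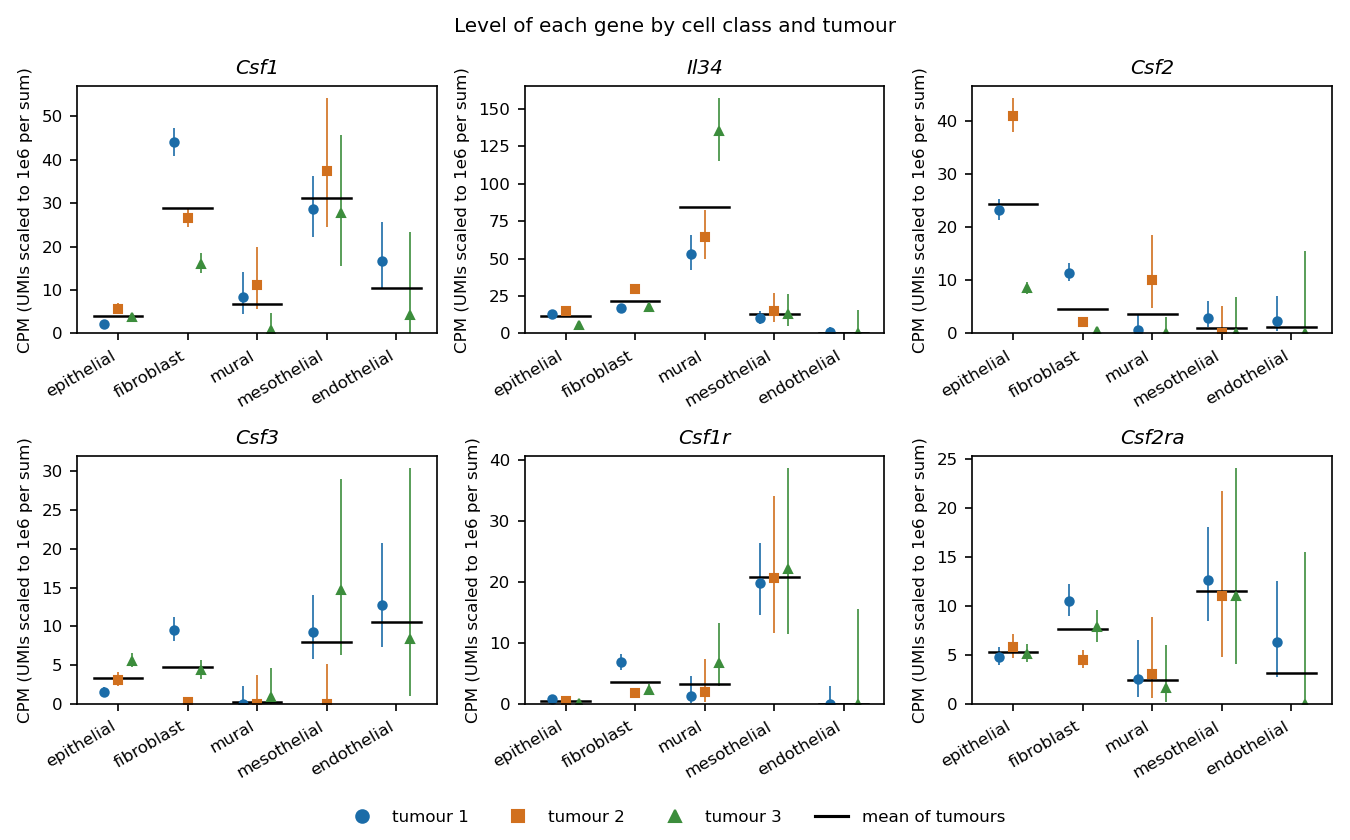
Level in CPM (vertical axis, linear) of the 6 genes in 5 cell classes; points are tumours with exact 95% Poisson intervals that cover counting error only, and black lines are means over the tumours (2 for endothelial cells). Csf1 is high in fibroblasts and mesothelial cells, Il34 in mural cells, Csf2 in epithelial cells and Csf1r in mesothelial cells at 19.8 to 22.1 CPM.

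Il34 was highest in another class. Mural cells, the pericytes and smooth muscle of vessel walls, held 53.2, 64.7 and 135 CPM (84.3 ± 44.2, SD, n = 3). Fibroblasts held 17.1, 29.99 and 17.4 CPM (21.5 ± 7.36). Every mural value lay above every value of the other classes that entered the sums. Of all Il34 UMIs, however, the few mural cells held 9.02%. Fibroblasts held 33.1%, cells that passed no pair 31.0% and epithelial cells 19.9%.

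Epithelial cells held 13.3, 15.1 and 5.78 CPM of Il34 and mesothelial cells 10.1, 15.2 and 12.9 CPM, so those ranges overlapped. Endothelial cells held 0.797 CPM in tumour 1, from 1 UMI, and 0 in tumour 3, where 63 cells allow up to 12.6 CPM. In mural cells 25.8%, 26.9% and 39.7% carried an Il34 UMI although their median depth, 3503 to 5398 UMIs, was below the 7727 to 10616 of epithelial cells, of which 13.1%, 12.8% and 4.20% carried one.

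Between epithelial and mural cells 20.2% of all genes were called higher and 22.3% lower in epithelial cells, with 1 and 2 of the 6 genes. Il34 was lower in epithelial than in mural cells by a log2 fold change of -2.90 ± 0.41 (edgeR adjusted p = 5.83e-05, lower in 3 of 3 tumours). Between fibroblasts and mural cells 9.96% of all genes were called higher and 8.25% lower in fibroblasts, with 2 and 1 of the 6. Il34 was lower in fibroblasts by -1.94 ± 0.39 (edgeR adjusted p = 0.00327, 3 of 3 tumours). Both calls held under all 14 alternatives run.

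The Il34 difference between epithelial cells and fibroblasts was -0.96 ± 0.37 and did not pass (edgeR adjusted p = 0.0515). It passed in 3 of 14 alternatives: with only these classes in the fit (adjusted p = 0.0289), with no filter on low counts (0.0205) and among cells with no gate gene of the other class (0.0448).

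Csf2 was the epithelial factor of the set. Epithelial cells held 23.4, 41.1 and 8.58 CPM (24.4 ± 16.3, SD, n = 3) and fibroblasts 11.5, 2.07 and 0.495 CPM (4.67 ± 5.93). The epithelial level was the higher one within each tumour, but the class ranges overlapped because fibroblasts of tumour 1 exceeded epithelial cells of tumour 3.

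Few UMIs were seen elsewhere. Mesothelial cells held 7 UMIs in tumour 1 (2.95 CPM) and none in tumour 2 (up to 4.14 CPM is possible at that depth) or tumour 3 (up to 5.53 CPM). Mural cells held 0.641, 10.1 and 0 CPM, and the 10.1 came from 1 cell with 10 UMIs. Endothelial cells held 3 UMIs in tumour 1 and none in tumour 3.

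Csf2 was higher in epithelial cells than in fibroblasts by a log2 fold change of 2.76 ± 0.63 (edgeR adjusted p = 0.00271, 3 of 3 tumours). It kept the call in 13 of 14 alternatives, at 4.31 without tumour 1 and 1.85 with the gates taken as written, and lost it without the tumour as a block (2.34, adjusted p = 0.110). Against mural cells the log2 fold change was 3.25 ± 0.89 (edgeR adjusted p = 0.00874). It lost the call in 2 of 14 alternatives, with adjusted p up to 0.0919, and 1 of these was without tumour 3 (0.0636). It was 6.02 without tumour 2, which holds the cell with 10 UMIs.

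Between epithelial and mesothelial cells 19.0% of all genes were called higher and 21.1% lower in epithelial cells, with 1 and 3 of the 6 genes. There the Csf2 log2 fold change was 4.17 ± 1.03 (edgeR adjusted p = 0.00521). Counting cells with a UMI in place of UMIs, it was 1.86 (adjusted p = 0.0501). The call was lost in 2 of 13 alternatives, this one among them, with adjusted p up to 0.0609. Between epithelial and endothelial cells, in tumours 1 and 3, 13.8% of all genes were called higher and 15.3% lower, with 2 and 0 of the 6. Csf2 (4.33 ± 1.41, edgeR adjusted p = 0.0335) and Il34 (3.95 ± 1.40, edgeR adjusted p = 0.0481) were the pair, and both rest on endothelial sums of 3 and 1 UMIs. The Il34 call was lost in 7 of 14 alternatives, with adjusted p up to 0.416, and was 1.27 with the gates taken as written (adjusted p = 0.306). The 18 endothelial cells of tumour 2, left out of the sums, held 5 Il34 UMIs in 2 cells (40.6 CPM), above the epithelial level of that tumour. Csf2 lost its call in 4 of 14: without tumour 1 (adjusted p = 0.302), without tumour 3 (0.129), without the tumour as a block (0.173) and counting cells with a UMI (0.143).

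**Figure D2:**
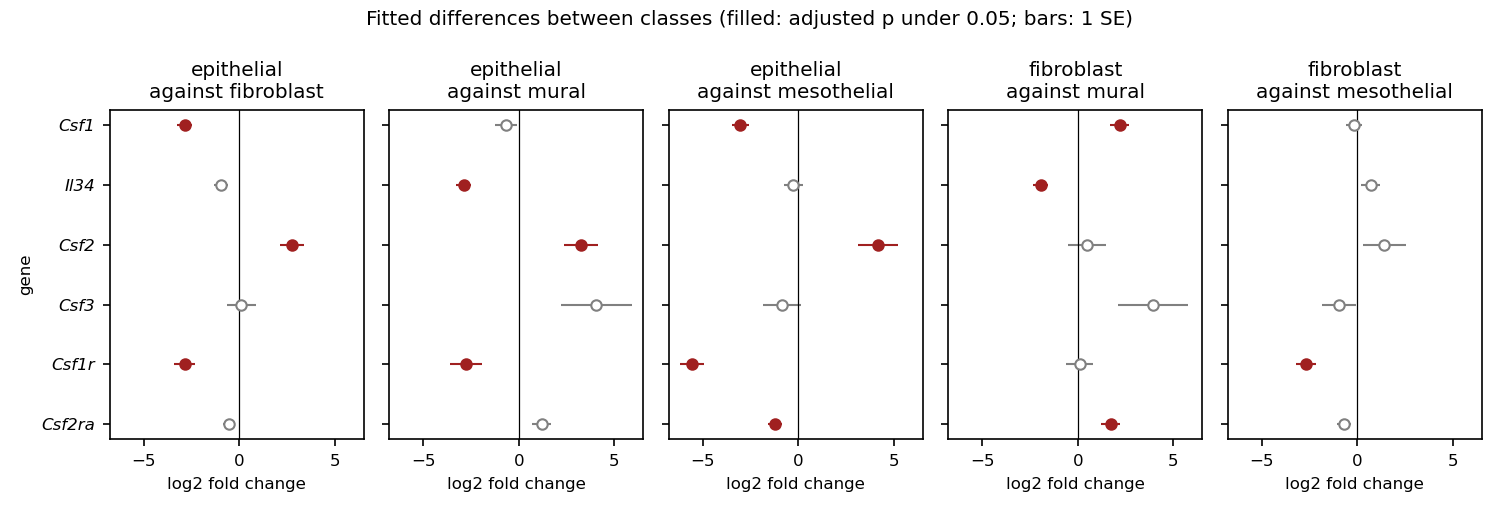
Log2 fold changes of the 6 genes (rows) in 5 comparisons between classes (panels), from edgeR fits on sums per tumour with the tumour as a block; bars are 1 SE, filled red points have an adjusted p under 0.05, and positive values are higher in the class named first. Csf2 is the gene called higher in epithelial cells than in fibroblasts, mural and mesothelial cells, and Csf1r is lower there in all 3.

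The Csf2 transcripts were concentrated in few cells. In the epithelial class 302 of 6366 cells held all 1373 UMIs, an average of 4.55 per cell with any, and up to 43 in 1 cell. The 89 cells with 5 or more UMIs held 71.5% of the total. Csf1 in fibroblasts behaved otherwise: 1073 cells held 1459 UMIs, 76.3% of them had exactly 1, and cells with 5 or more held 3.98% of the total. Il34 in mural cells was alike, with 226 cells, 308 UMIs and 75.2% of these cells at 1 UMI.

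The share of epithelial cells with a Csf2 UMI was 6.44%, 8.10% and 1.98%, and 2.98%, 4.59% and 1.14% after thinning to 3000 UMIs. In mural cells, in which 1 or 0 cells per tumour had a Csf2 UMI, the share was 0.397%, 0.641% and 0%. Epithelial cells with a Csf2 UMI were deeper than those without, with medians of 13502 against 10438 UMIs in tumour 1, 11926 against 8782 in tumour 2 and 11096 against 7696 in tumour 3.

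The fibroblasts with a Csf2 UMI, 39, 22 and 4 cells in tumours 1, 2 and 3, stood apart from other fibroblasts. Their 6 keratin and claudin markers summed to 6314, 2427 and 4381 CPM, against 1148, 853 and 445 CPM in fibroblasts without one. Their 6 fibroblast markers summed to 865, 1747 and 4617 CPM against 11278, 3996 and 11368 CPM, and their median depth was 22257, 14730 and 6260 UMIs against 7262, 8950 and 4947. Fibroblasts with a Csf3 UMI were also deeper and lower in fibroblast markers (4872, 765 and 4274 against 10886, 3972 and 11453 CPM). So were those with an Il34 UMI (8231, 2706 and 9968 against 11207, 4551 and 11495 CPM). Their keratin and claudin sums were higher in tumour 3 alone for Csf3, and in tumours 1 and 2 for Il34. Among fibroblasts with no UMI of Epcam or Cdh1 and epithelial cells with no UMI of Dcn or Col3a1, the Csf2 log2 fold change was 3.92 (edgeR adjusted p = 1.79e-05). This subset was chosen after seeing the data, and it drops fibroblasts with RNA of the epithelial pair. The larger value than in all cells of these classes is therefore no independent support.

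**Figure D3:**
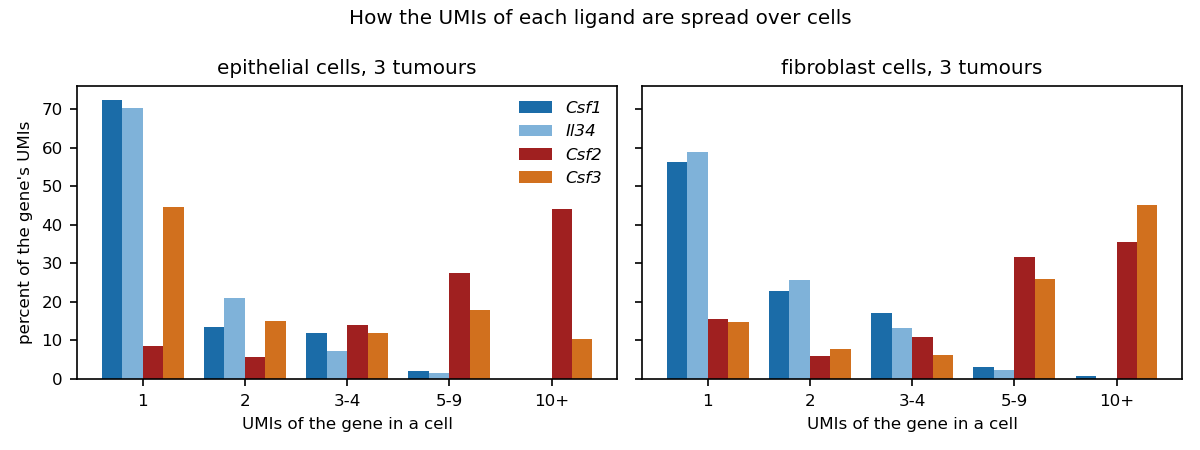
Percent of the UMIs of Csf1, Il34, Csf2 and Csf3 (vertical axis) found in cells with 1, 2, 3-4, 5-9 or 10 and more UMIs of that gene (horizontal axis), in epithelial cells and fibroblasts of the 3 tumours together. Csf2 lies to the right in both classes, with 44.1% of its epithelial UMIs in cells with 10 or more, while 72.3% of epithelial Csf1 UMIs lie in cells with 1. In fibroblasts Csf3 lies to the right as well, with 45.2% of its UMIs in cells with 10 or more (26.4% in 1 cell) against 35.7% for Csf2.

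Csf3 was sparse in every class. Epithelial cells held 1.53, 3.11 and 5.59 CPM (3.41 ± 2.04, SD, n = 3) and fibroblasts 9.60, 0.230 and 4.37 CPM (4.73 ± 4.70). A single fibroblast of tumour 1 held 55 of the 150 UMIs there. The spread between tumours was as wide as the gap between the classes.

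Mesothelial cells held 9.27, 0 and 14.8 CPM of Csf3, from 22, 0 and 8 UMIs, and endothelial cells 12.8 and 8.42 CPM, from 16 and 2 UMIs. In mural cells 1 UMI was seen in all 3 tumours. Csf3 passed the test in none of the 6 comparisons (edgeR adjusted p = 0.930 between epithelial cells and fibroblasts, 0.0971 between epithelial and mural cells). Its unadjusted p was under 0.05 in 2 of the 6, those of epithelial cells (log2 fold change 4.06 ± 1.87) and fibroblasts (3.96 ± 1.84) against mural cells, and both differences rest on 1 mural UMI. The epithelial difference from mural cells passed in 3 alternatives: with DESeq2 (3.92, adjusted p = 0.0166), with no filter on low counts (0.0123) and with only these classes fitted (0.0101). That of fibroblasts passed with no filter (adjusted p = 0.0354), and epithelial cells were below endothelial cells with only those classes fitted (-2.07, adjusted p = 0.0173).

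The gene of the receptor for CSF-1 and interleukin-34 was highest in mesothelial cells. Csf1r stood there at 19.8, 20.7 and 22.1 CPM (20.9 ± 1.17, SD, n = 3). Fibroblasts held 6.85, 1.80 and 2.23 CPM, mural cells 1.28, 2.02 and 6.70 CPM, and epithelial cells 0.744, 0.463 and 0.236 CPM. No mesothelial value overlapped any other class. Of all Csf1r UMIs, however, the more numerous fibroblasts held 50.4% and mesothelial cells 21.6%. In fibroblasts with a Csf1r UMI the 5 mesothelial markers summed to 349, 171 and 490 CPM in tumours 1, 2 and 3. Fibroblasts without one held 201, 56.7 and 247 CPM, and mesothelial cells 1864 to 3419 CPM. The part of mesothelial-like cells in the fibroblast share was not tested.

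In endothelial cells no Csf1r UMI was seen in 204 cells of tumour 1 and 63 of tumour 3, which allows up to 2.39 and 12.6 CPM. A Csf1r UMI was found in 16.8%, 15.3% and 16.7% of mesothelial cells, 59 of 358 in all. After thinning to 3000 UMIs these shares were 7.08%, 4.17% and 5.08%, against 1.53%, 0.793% and 0.486% of fibroblasts and 0.366%, 0.135% and 0.0347% of epithelial cells.

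Csf1r was lower in epithelial than in mesothelial cells by a log2 fold change of -5.56 ± 0.63 (edgeR adjusted p = 1.55e-05, 3 of 3 tumours). In the comparison of fibroblasts with mesothelial cells 8.29% of all genes were called higher and 8.71% lower in fibroblasts, and of the 6 genes 0 and 1. That gene was Csf1r, at -2.70 ± 0.54 (edgeR adjusted p = 0.00415), lower in 3 of 3 tumours and not passing without tumour 2 (adjusted p = 0.0531). Epithelial cells also lay below fibroblasts, by -2.86 ± 0.56 (edgeR adjusted p = 0.00103), and below mural cells, by -2.76 ± 0.83 (edgeR adjusted p = 0.0162). The mural difference rests on 12 UMIs and lost the call in 4 of 14 alternatives. Among these were the fits without tumour 2 (adjusted p = 0.0503) and without tumour 3 (-1.17, adjusted p = 0.420).

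Because Csf1r is a macrophage gene, 12 macrophage markers were read in the same cells. In the 59 mesothelial cells with a Csf1r UMI, Cd14 gave 90 UMIs and Cd68 gave 12, and Ptprc, Lyz2, Adgre1, C1qa, C1qb, C1qc, Tyrobp, Fcer1g, Mrc1 and Itgam gave 0. With UMIs of only these 2 markers, none of the 59 cells could carry 3 or more of the list. The summed macrophage list stood at 144 CPM in mesothelial cells with a Csf1r UMI and 137 CPM in those without. Among the 144 fibroblasts with a Csf1r UMI, 2 cells, both in tumour 1, carried 3 or more macrophage markers, and among the 29 epithelial cells 0 did.

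**Figure D4:**
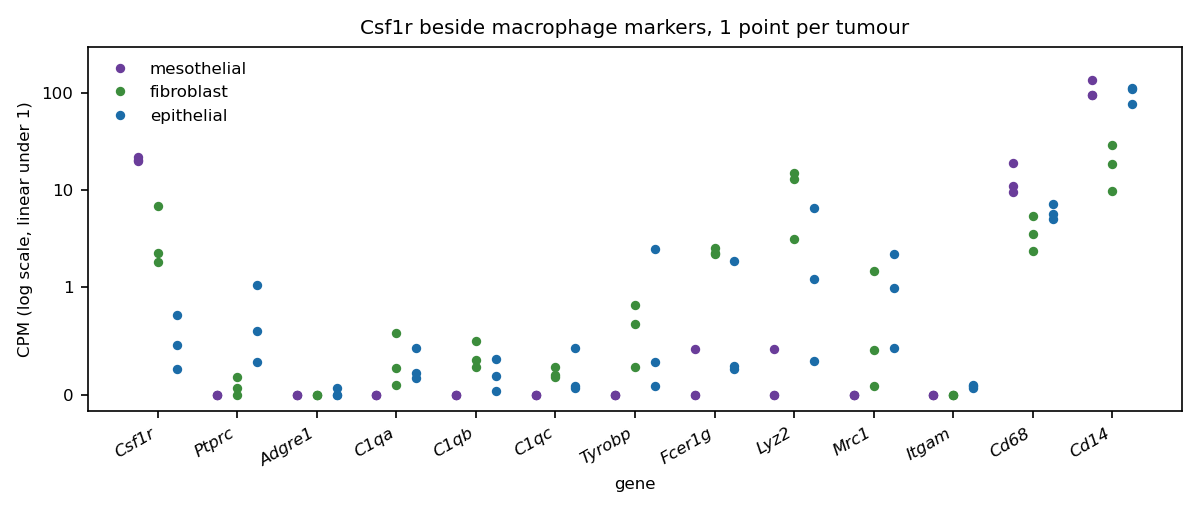
CPM (vertical axis, logarithmic above 1 and linear below) of Csf1r and 12 macrophage markers in mesothelial, fibroblast and epithelial cells, 1 point per tumour. Mesothelial cells have Csf1r at 19.8 to 22.1 CPM with Ptprc, Adgre1, C1qa, C1qb, C1qc and Tyrobp at 0, and share Cd14 and Cd68 with the other classes.

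Other binding partners of the Csf1r ligands had their own distribution. Sdc1, a surface proteoglycan (syndecan-1) that also binds interleukin-34, stood at 452, 418 and 415 CPM in epithelial cells and 194, 158 and 210 CPM in fibroblasts. Mesothelial cells held 49.7, 45.6 and 36.9 CPM. The log2 fold change of Sdc1 was 1.14 ± 0.16 for epithelial cells against fibroblasts (edgeR adjusted p = 4.36e-05) and 3.12 ± 0.19 against mesothelial cells (edgeR adjusted p = 3.83e-08). Ptprz1, the phosphatase receptor for interleukin-34, was too low to be tested between classes, with 0.306, 3.84 and 0.748 CPM in epithelial cells.

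Csf2ra, the alpha chain of the GM-CSF receptor, had few UMIs in any class. Mesothelial cells held 12.6, 11.0 and 11.1 CPM (11.6 ± 0.915, SD, n = 3), fibroblasts 10.6, 4.51 and 7.84 CPM, epithelial cells 4.82, 5.82 and 5.15 CPM and mural cells 2.56, 3.03 and 1.68 CPM. Endothelial cells held 6.38 CPM in tumour 1 and none in tumour 3. By mean the order was mesothelial, fibroblast, epithelial and mural, and of these neighbours the ranges of fibroblasts and epithelial cells overlapped. A Csf2ra UMI was found in 5.13%, 5.47% and 4.37% of epithelial cells, with a median of 7727 to 10616 UMIs per cell, and in 1.59%, 1.92% and 0.667% of mural cells, with a median of 3503 to 5398. The part of free RNA in these shares was not tested.

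Epithelial cells had less Csf2ra than mesothelial cells, by a log2 fold change of -1.23 ± 0.38 (edgeR adjusted p = 0.0205, 3 of 3 tumours). Fibroblasts had more than mural cells, by 1.73 ± 0.49 (edgeR adjusted p = 0.0254, 3 of 3 tumours). Both calls were lost in 3 alternatives each, of 12 and 13 run. Among these were the fits without tumour 1 (adjusted p = 0.198 and 0.256) and without tumour 3 (0.0791 and 0.179). The difference between epithelial cells and fibroblasts was -0.53 ± 0.30 and that between fibroblasts and mesothelial cells -0.70 ± 0.38, neither of which passed (edgeR adjusted p = 0.180 and 0.242).

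The signalling beta chains were not where the alpha chain was highest. Csf2rb, the shared beta chain, stood at 103 and 63.1 CPM in endothelial cells of tumours 1 and 3. It stood at 4.61, 2.17 and 1.57 CPM in fibroblasts and 0.175, 0.132 and 0 CPM in epithelial cells. In mesothelial cells no Csf2rb UMI was counted in any tumour, which allows up to 1.26, 4.14 and 5.53 CPM. Csf2rb2, the closely related mouse chain for interleukin-3, followed the same order, with 78.2 and 29.5 CPM in endothelial cells, and reads of such similar genes could be split between them.

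Csf2rb was lower in epithelial cells than in fibroblasts by a log2 fold change of -4.71 ± 0.51 (edgeR adjusted p = 1.28e-05, 3 of 3 tumours). Csf3r, the G-CSF receptor of neutrophils, was too low to be tested: its highest class level was 1.38 CPM, from mesothelial cells of tumour 2, and 10 of the 14 class sums held none.

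With the 5 receptor genes just named (Sdc1, Ptprz1, Csf2rb, Csf2rb2 and Csf3r), the list of partners holds 19 receptors, shedding enzymes, kinases and feedback inhibitors, of which 15 could be tested between classes. Between epithelial cells and fibroblasts 1 was called higher, Sdc1, and 6 lower, Csf2rb and Csf2rb2 among them, where 18.0% of all genes were called higher and 24.5% lower. The list's median log2 fold change was -0.44 against -0.04 over all genes. Socs1, a feedback inhibitor of JAK and STAT signalling, was another of the lower ones (-2.33 ± 0.38, edgeR adjusted p = 0.000195). Against mural cells 1 was higher and 5 lower (20.2% and 22.3% of all genes), and against mesothelial cells 2 and 3 (19.0% and 21.1% of all genes). Socs3, another feedback inhibitor of this pathway, was lower in epithelial than in mesothelial cells by -1.35 ± 0.24 (edgeR adjusted p = 0.000417). Against endothelial cells 1 was higher and 5 lower (13.8% and 15.3% of all genes). Inpp5d, the haematopoietic phosphatase SHIP1, held 27.9 and 21.0 CPM in endothelial cells and at most 0.199 CPM in epithelial cells.

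A second list of 18 genes holds signals that induce colony-stimulating factors: interleukin-1, TNF, interleukin-17 receptors and the NF-kB pathway. Of 17 tested, 3 were higher and 5 lower in epithelial cells than in fibroblasts, near the 18.0% and 24.5% of all genes, with a median log2 fold change of -0.18. The higher ones were the ligand genes Tnf and Il1a and the kinase gene Ikbkb. Tnf stood at 19.2, 10.5 and 7.20 CPM in epithelial cells and 3.20, 0.230 and 0.495 CPM in fibroblasts, a log2 fold change of 3.67 ± 0.46 (edgeR adjusted p = 2.77e-05). Il1a, which encodes interleukin-1 alpha, stood at 15.7, 13.1 and 8.11 CPM against 4.22, 1.34 and 0.825 CPM, a log2 fold change of 2.69 ± 0.36 (edgeR adjusted p = 4.60e-05).

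The receptor Il1r1 was on the other side, at 9.41, 9.40 and 7.67 CPM in epithelial cells and 114, 25.7 and 96.5 CPM in fibroblasts. Its log2 fold change was -3.05 ± 0.43 (edgeR adjusted p = 4.86e-05). Against mesothelial cells 3 of the 17 were higher and 7 lower in epithelial cells (19.0% and 21.1% of all genes). Nfkbia, the inhibitor of NF-kB that is also its target, was lower by -2.08 ± 0.20 (edgeR adjusted p = 2.63e-06). Against mural cells the counts were 2 higher and 6 lower (20.2% and 22.3% of all genes).

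Within epithelial cells, 355, 311 and 223 cells had 2 or more Areg UMIs and 1310, 918 and 2519 had 0. The cells with Areg were deeper, with median UMI counts of 10034 to 16317 against 7396 to 8946. Csf2 stood at 40.5, 94.0 and 39.8 CPM in cells with Areg (58.1 ± 31.1, SD, n = 3) and 11.1, 17.9 and 5.37 CPM in those without (11.5 ± 6.28). No value of one group overlapped the other.

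A Csf2 UMI was found in 12.7%, 16.4% and 9.87% of the cells with Areg and 3.74%, 5.01% and 1.19% of those without. With the groups kept but cells reduced to 3000 UMIs each, which in tumour 3 left 221 of 223 and 2431 of 2519 cells, these shares became 5.92%, 8.36% and 6.79% against 1.68%, 2.61% and 0.535%. At equal depth the share was thus higher in cells with Areg in each tumour.

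Between these groups 10.0% of all genes were called higher and 8.15% lower in cells with Areg, and of 5 genes tested 1 was higher and 1 lower. Csf2 was higher by a log2 fold change of 2.39 ± 0.17 (edgeR adjusted p = 4.48e-06, 3 of 3 tumours). With groups read after thinning it was 2.14 (adjusted p = 0.00179), and counting cells with a UMI it was 1.51 (adjusted p = 0.00513). Without the tumour as a block it was 2.40 and did not pass (adjusted p = 0.310), a fit in which no gene of the 11869 was called.

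Csf2ra moved the other way, from 6.21, 6.97 and 5.61 CPM in cells without Areg to 2.08, 5.18 and 2.79 CPM in cells with it. Its log2 fold change was -0.93 ± 0.29 (edgeR adjusted p = 0.0469), lower in 3 of 3 tumours. It passed in 4 of 11 alternatives, and with groups read after thinning it was -0.34 (adjusted p = 0.914). Csf1 (-0.79 ± 0.37), Csf3 (0.44 ± 0.33) and Il34 (0.52 ± 0.24) did not pass (edgeR adjusted p = 0.165, 0.390 and 0.153). Il34 was higher in cells with Areg in tumours 2 and 3 (25.6 against 11.4 CPM and 7.96 against 5.71) and not in tumour 1 (12.0 against 13.8). Csf1r was too low to be tested in this split.

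**Figure D5:**
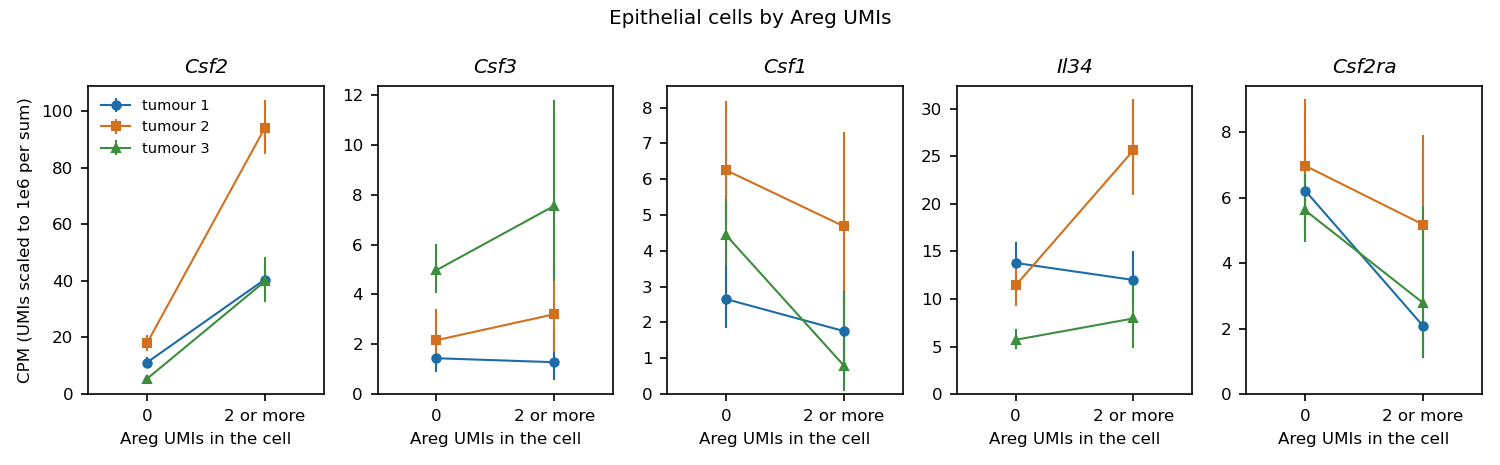
CPM (vertical axis, linear, a separate scale per gene) of 5 genes in epithelial cells with 0 and with 2 or more Areg UMIs; lines join the groups of 1 tumour and bars are exact 95% Poisson intervals. Csf2 is higher with Areg in all 3 tumours, at 39.8 to 94.0 CPM, Csf2ra and Csf1 are lower in all 3, and Il34 differs in direction between tumours.

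Of the 17 inducers tested in this split 4 were higher and 0 lower in cells with Areg (10.0% and 8.15% of all genes). Il1a was higher by 1.17 ± 0.21 (edgeR adjusted p = 0.00277), Tnfaip3, a feedback inhibitor of NF-kB, by 0.70 ± 0.16 (edgeR adjusted p = 0.00880) and Tnf by 0.68 ± 0.19 (edgeR adjusted p = 0.0264), each in 3 of 3 tumours. Of 13 partners tested 2 were higher and 0 lower, beside the same 10.0% and 8.15% of all genes. The 2 were Sdc1 (0.47 ± 0.08, edgeR adjusted p = 0.00151) and Grb2, an adaptor of receptor tyrosine kinases (0.43 ± 0.10, edgeR adjusted p = 0.00977).

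Pairs of the genes were also read in the same cell. Of the 302 epithelial cells with a Csf2 UMI, 24.5% also had an Il34 UMI, against 8.11% of the other epithelial cells, and 16 had a Csf2ra UMI (5.30% against 4.83%). Of the 1073 fibroblasts with a Csf1 UMI, 41 had a Csf1r UMI (3.82% against 2.13%). Of the 86 mesothelial cells with a Csf1 UMI, 15 had a Csf1r UMI (17.4% against 16.2%). These shares pool the 3 tumours and are not corrected for tumour or depth. Csf2 and Il34 were both found least often in epithelial cells of tumour 3 (1.98% and 4.20% of cells). In fibroblasts of tumours 1, 2 and 3, Csf1 was found in 26.3%, 22.0% and 8.01% and Csf1r in 5.09%, 1.59% and 0.961%. The part that such differences have in the pooled shares was not tested. Cells with a UMI of one gene were also deeper in most tumours.

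The genes with the most similar pattern over the 14 class sums were ranked by Pearson correlation of log2(CPM + 1) among 12449 genes; the sums share tumours, depth and cell classes, so the values are descriptions. For Csf2 they were Ivl (involucrin, 0.98), Il1rn (the interleukin-1 receptor antagonist, 0.96), Nkx6-3, Ap2b1 and Il1a (0.91). For Csf1 they began with Abracl (0.95) and Pdpn (podoplanin, 0.91), for Il34 with Prdx5 (0.94), Shisa4 and Angptl2, for Csf1r with Twsg1 (0.95) and Gas1 (0.93), and for Csf2ra with Vcam1 (0.97), an adhesion molecule. For Csf3 no gene exceeded 0.82.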

How the data were processed

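The authors deposited 1 matrix of raw UMI counts per gene and cell for the 3 tumours, whole numbers and not normalized, with the tumour given by the barcode suffix, per the labels. The submitters' processing notes name Cell Ranger 2.1.1 and Seurat 3.0. The genome build was not given in the sources used here, nor was the gene annotation. Cells with fewer than 500 genes or over 20% mitochondrial counts were left out, and Scrublet (scanpy 1.11.5) removed 68, 93 and 140 cells as doublets.

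Classes were made disjoint: a cell passing the fibroblast pair and the mural, mesothelial or endothelial pair counted in the latter, and a cell passing the epithelial pair and any other was left out. Counts were summed per tumour and class (at least 20 cells) and fitted with edgeR 4.0.16 (TMM, filterByExpr, quasi-likelihood test, tumour as a block, all classes in 1 fit, Benjamini-Hochberg at 0.05 over 11901 genes, or 11869 for Areg). Gate genes and Areg were not tested. The tumour is the replicate because all sums of a number come from 1 tumour. Each SE was taken as the size of the log2 fold change over the root of its F statistic. Intervals and floors (3 counts) cover counting error only. The p-values of the main fits measure the spread left once class (or Areg group) and tumour are fitted, not the spread between tumours.

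The 6 genes and the lists were chosen with earlier results of these data known. Named genes were the 6, any gene of the lists of partners and inducers (with the 3 of largest change among those called with 1 sign in every tumour named first), and the 5 most similar genes. Alternatives covered DESeq2 1.42.0, normalization, filter, block, tumours, doublets, gates, thinning and the Areg threshold. Counting cells with a UMI, and leaving out cells with a gate gene of the opposite class, were chosen after seeing the data. On simulated counts the class fit and the Areg fit were tested before use.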

Additional observations from a re-analysis of the deposited data

Results flagged for a closer look

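The 4426 cells that passed none of the marker pairs entered no comparison, and all 6 genes were counted in them. Their UMIs numbered 512 for Csf1, 627 for Csf2, 28 for Csf3, 1058 for Il34, 31 for Csf1r and 166 for Csf2ra, each above the 3 counts that a count of 0 allows. These cells held 31.0% of all Il34 UMIs, 23.4% of Csf2 and 20.8% of Csf1, and 2193 of them came from tumour 2, where they held 46.6% of the Il34 and 38.4% of the Csf1 UMIs. In tumour 2 their Il34 level was 35.9 CPM against 13.4 in tumour 1 and 9.36 in tumour 3, and their Csf1 level was 18.9 CPM against 2.53 and 3.72. Their Csf2 level was 42.4, 9.56 and 8.88 CPM in tumours 1, 2 and 3. Their keratin and claudin markers summed to 6228, 1890 and 4359 CPM and their fibroblast markers to 682, 849 and 535 CPM. Of 12 such cells with a Csf1r UMI in tumour 1, 2 carried 3 or more macrophage markers.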

How the results depend on the processing

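Of 239 values of called differences under another setting, 203 stayed called in the same direction, 36 lost the call and none changed sign. Csf1 and Csf1r in epithelial cells against fibroblasts and mesothelial cells, and Il34 in mural cells against epithelial cells and fibroblasts, kept their calls throughout. The tumours' numbers pair the sums because all sums of a number come from 1 tumour, and without the replicate block the number of the 6 genes called fell to 1 against endothelial cells and to 0 in the Areg split. All-gene calls in the Areg split numbered 2159, 0 without the block, 1307 without tumour 1 and 308 after thinning. In the Areg split 1 gene was called with DESeq2 size factors, the DESeq2 test, doublets kept or thinning. Against mural cells 5 were called for epithelial cells with no filter. Against endothelial cells 1 was called with gates as written, exactly 1 gate or thinning, 4 with only those classes fitted and 0 counting cells with a UMI. Fibroblasts against mesothelial cells had 2 with gates as written. Leaving out a tumour gave 0 to 1 against endothelial cells, 1 to 3 for fibroblasts against mural cells, 0 to 1 against mesothelial cells, 1 to 3 for epithelial against mural cells and 1 to 2 for Areg.

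Reversed values were all of differences not called. Csf3 in epithelial cells against fibroblasts was -0.50 without the block and -1.13 to 1.91 when a tumour was left out, against mesothelial cells -1.83 to 0.0023, and against endothelial cells -1.75 to 0.66. When a tumour was left out, fibroblasts against mural cells gave -1.74 to 3.97 for Csf2 and -1.08 to 1.40 for Csf1r, Csf1 in fibroblasts against mesothelial cells gave -0.71 to 0.0023, and Il34 in epithelial against mesothelial cells gave -0.55 to 0.16. Csf2ra against endothelial cells was -0.47 with gates as written. Thinning gave 0.21 for Csf1 and -0.26 for Csf2 in fibroblasts against mesothelial cells and -0.0215 for Il34 with Areg. Counting cells gave -0.0556 for Csf1r against mural and -0.30 for Csf2 against mesothelial cells in fibroblasts, and leaving out cells with an opposite gate gene gave 0.0893 for Csf1. The cause was not tested. Depth limits Csf3, Csf1r and all endothelial values. With exactly 1 gate too few mesothelial cells were left for a value.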
